A study of Rattus norvegicus with 14 samples.

Results

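Colonocytes burn fatty acids in their mitochondria, and the genes for this route were compared between rats on a normal-protein (NPD) and on a high-protein diet (HPD). The set held 9 genes, Cpt1a, Cpt2, Acadm, Acadvl, Hadha, Hadhb, Pdk4, Angptl4 and Ppara, chosen by name from the probes on the array. All 9 were on the array, with 10 probes of the 30367 that were not controls, and 9 of its 26276 gene names. Hadha had 2 probes and each other gene had 1.

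The animals were male Wistar rats that ate ad libitum, until day 15, isocaloric diets with 14% (NPD) or 55% (HPD) of the energy from protein, in which digestible carbohydrate made up for the protein. Colonocytes are the lining epithelium of the colon. They were loosened from the flushed colon with EDTA, and the Cy3-labelled RNA of each rat was read on an Agilent array of its own. 7 NPD and 7 HPD arrays were compared. Fewer cells of a type and less RNA per cell cannot be told apart in such bulk RNA.

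Long-chain fatty acids enter the mitochondrion as carnitine esters: Cpt1a makes the ester at the outer membrane and Cpt2 takes the carnitine off at the inner membrane. Acyl-CoA dehydrogenases, Acadvl for very long and Acadm for medium chains, then start each round of β-oxidation, and the trifunctional protein of Hadha and Hadhb carries out the steps that follow for long chains. Ppara is a nuclear receptor that binds fatty acids and switches on much of this route; Pdk4, which shuts off pyruvate dehydrogenase, and Angptl4, a secreted inhibitor of lipoprotein lipase, are classical targets of the PPAR receptors. The colonocyte is known for its use of butyrate, a short-chain fatty acid made by bacteria, which does not need the carnitine shuttle.

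limma called 0 of the 9 genes different between the diets at a Benjamini-Hochberg q-value below 0.1, the threshold for a call, against 17 of all 30367 probes (0.056%). The lowest q-value of a member was that of Cpt1a (0.433). Cpt1a was also the single member with an unadjusted p under 0.05, 1 of 9 genes, against 11.5% of all genes by their brightest probe. By that probe, 6 genes had a higher mean in the HPD group and 3 a lower one, and 35.0% of all genes were lower. Hadha is among the 6, though its other probe was lower. With the mean of each gene's probes 5 were higher and 4 lower, and in the deposited normalized values 3 were higher and 6 lower. By the brightest probe the median log2 difference (HPD minus NPD) was 0.04 over the 9 genes and 0.11 over all genes. Among genes well above background on each array of at least 1 diet, it was 0.04 for 7 members and 0.058 for all such genes. Of these 7 members 2 were lower and 5 higher, against 6718 lower and 9342 higher of all such genes. The NPD and HPD values of all 10 probes overlapped, while 0.273% of the 30367 probes had no overlap.

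**Figure D1:**
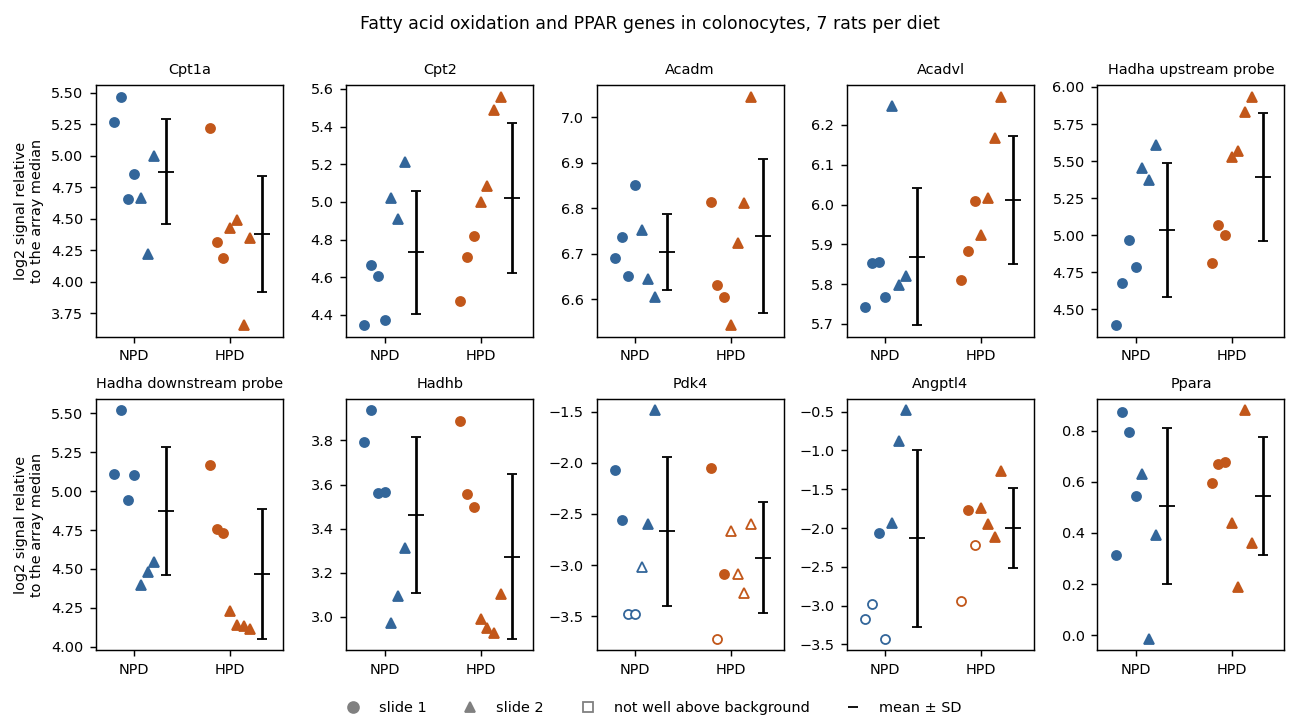
Signal of the 10 probes of the 9 genes on each array, on the log2 scale and relative to the array's median (y axis, a scale of its own in each panel), for 7 NPD and 7 HPD rats (x axis). Circles are slide 1 and triangles slide 2, open symbols were not well above background, and the black bar is the mean ± SD of the 7 arrays. The diets overlap in each panel, and the Hadha and Hadhb values split by slide.

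Values are log2 signals relative to the median of the array, so that 0 is the median probe, and levels of different probes were not set against each other. The arrays lay on 2 slides, slide 1 with 4 NPD and 3 HPD arrays and slide 2 with 3 NPD and 4 HPD arrays. Slide changed 40.1% of all probes at the same q-value in a fit with diet, and among the members it changed Cpt2, both Hadha probes, Hadhb and Angptl4. The number of probes well above background ranged from 18839 to 20976. NPD arrays were brighter, with a median background-subtracted signal of 84.4 ± 11.2 (SD, n = 7) against 66.0 ± 7.11 (SD, n = 7) for the HPD (p = 0.00525, exact two-sided permutation test). The part of this brightness in the member values, beyond the centring, was not tested. All 18 markers of absorptive epithelium looked up were well above background on each array of at least 1 diet.

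Cpt1a, which controls the entry of long-chain fatty acids, had the largest difference of the 10 probes. Its NPD values ran from 4.22 to 5.47 (median 4.85) and its HPD values from 3.65 to 5.22 (median 4.35). The lowest value was that of HPD 6, and 6 of the 7 HPD arrays lay under the NPD mean, but HPD 1, at 5.22, lay among the highest NPD values. The mean was 4.87 ± 0.42 (SD, n = 7) with the NPD against 4.38 ± 0.46 (SD, n = 7) with the HPD. The difference of -0.50 (SE 0.23, 95% interval -0.98 to -0.02) corresponds to -29.1% on the linear scale. It did not pass the threshold in limma (q = 0.433), and the exact two-sided permutation test gave p = 0.0577 over all splits of the arrays and 0.0718 within slides. The difference was -0.49 on slide 1 and -0.39 on slide 2. Over 33 fits, this one and those with other settings or without an array, it stayed between -0.64 and -0.38, and it was called in 1 of them, after normexp background correction (q = 0.0978), where 19.0% of all genes were called. The probe, printed 10 times on the array, lies at chr1:205912066-205912125 of rn4, plus strand, and starts at base 3421 of the transcript.

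Cpt2, which frees the fatty acid inside the mitochondrion, did not share this direction. Its values ran from 4.35 to 5.21 (median 4.66) on the NPD arrays and from 4.47 to 5.56 (median 5.00) on the HPD arrays. The difference was 0.29 (SE 0.19, 95% interval -0.12 to 0.69, q = 0.515). Slide separated the Cpt2 values more than diet did, with slide 2 higher by 0.58 (q = 0.00275), and within slides the diet difference was 0.17 and 0.24. The exact permutation test gave p = 0.168 over all splits and 0.0890 within slides. The probe lies at chr5:129007858-129007917 of rn4, minus strand.

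The acyl-CoA dehydrogenases differed between the diets by less than the spread between rats. Acadm, the medium-chain enzyme, was at 6.70 ± 0.08 (SD, n = 7) with the NPD against 6.74 ± 0.17 (SD, n = 7) with the HPD. Its difference of 0.03 had the narrowest interval of the 10 probes, from -0.18 to 0.25, which holds changes from -11.7% to 18.9%. HPD 7, at 7.05, was the highest of the 14 arrays and HPD 4, at 6.54, the lowest, so the spread within the HPD group covered the whole NPD range. Acadvl, the very-long-chain enzyme, had a mean of 5.87 ± 0.17 (SD, n = 7) with the NPD against 6.01 ± 0.16 (SD, n = 7) with the HPD. Here 6 of the 7 NPD arrays lay between 5.74 and 5.86, and 6 of the 7 HPD arrays lay above the NPD mean. NPD 5 stood apart at 6.25, next to the highest HPD value of 6.27. The Acadvl difference was 0.14 (SE 0.11, 95% interval -0.09 to 0.38, q = 0.537), with p = 0.138 in the exact permutation test. The probes lie at chr2:251867002-251867061 (Acadm) and chr10:56856347-56856406 (Acadvl) of rn4, both on the minus strand.

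**Figure D2:**
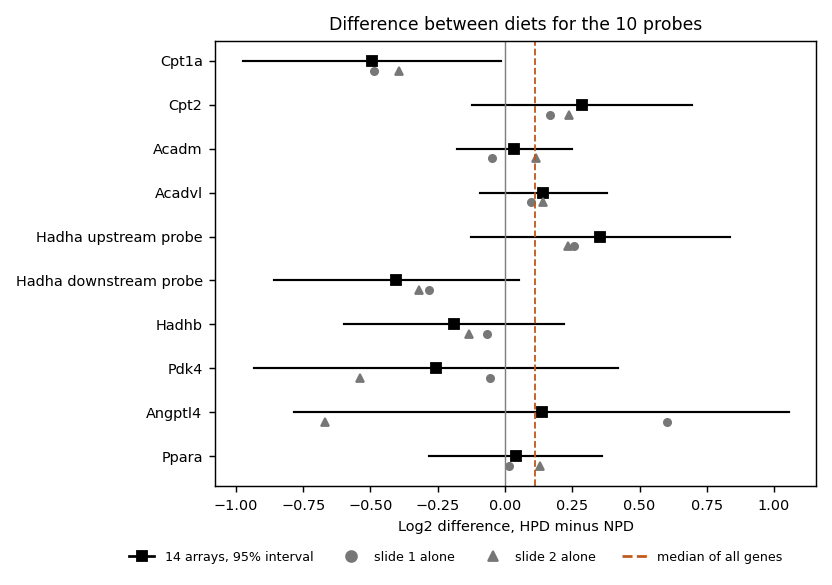
Log2 difference between the diets (x axis, HPD minus NPD) for the 10 probes (y axis). Squares are the limma estimates over 14 arrays with their 95% intervals, grey circles and triangles are the estimates from slide 1 and slide 2 alone, and the dashed line is the median of all genes. The interval of Cpt1a, from -0.98 to -0.02, is the single one that leaves out 0, and the slides lie farthest apart for Angptl4.

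Hadha encodes the α subunit of the trifunctional protein, which holds the hydratase and the long-chain hydroxyacyl-CoA dehydrogenase. Its 2 probes did not give the same picture, so their sequences are shown in transcript order, as the scanner files give them, in lower case.
Hadha upstream probe: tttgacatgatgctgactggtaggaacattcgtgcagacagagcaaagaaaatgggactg
Hadha downstream probe: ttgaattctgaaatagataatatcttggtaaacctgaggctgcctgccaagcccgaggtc
The upstream probe starts at base 607 of the transcript and lies in 1 block at chr6_random:452613-452672 of rn4, on a stretch of chromosome 6 that this build had not placed. The downstream probe starts at base 1957 and spans chr6_random:467174-467737, which is 564 bases for a probe of 60, so it crosses an intron. Both lie on the plus strand, and 45.0% of the bases of each are G or C. The array held 1 spot of the upstream probe and 2 spots of the downstream probe.

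With the upstream probe Hadha was higher in the HPD group. Its values ran from 4.39 to 5.61 (median 4.97) on the NPD arrays and from 4.82 to 5.93 (median 5.52) on the HPD arrays, a difference of 0.35 (SE 0.23, 95% interval -0.13 to 0.84, q = 0.512). With the downstream probe Hadha was lower in the HPD group. Its values ran from 4.40 to 5.52 (median 4.94) on the NPD arrays and from 4.12 to 5.17 (median 4.23) on the HPD arrays, a difference of -0.40 (SE 0.21, 95% interval -0.86 to 0.05, q = 0.456). Neither difference passed the threshold, and the mean of both probes differed by -0.02 (SE 0.09, q = 0.894). In the deposited table, with 1 value per gene name, Hadha differed by -0.29 (SE 0.12, q = 0.190), and by -0.24 with slide as a block (SE 0.08, q = 0.1005). Both had an unadjusted limma p under 0.05, and neither passed the threshold.

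The probes were opposed by slide as well. Slide 2 differed from slide 1 by 0.76 with the upstream probe (q = 5.35e-04) and by -0.71 with the downstream probe (q = 6.40e-04). With slide taken as a block the diet differences shrank to 0.25 (SE 0.11, q = 0.314) and -0.30 (SE 0.10, q = 0.225). Regrouping the arrays only within their slides gave an unadjusted p of 0.0286 and of 0.00980 in the exact permutation test (10 probes were tested so), with both slides in the same direction for each probe. Which of the probes follows the Hadha transcript was not tested, so no direction is given for the gene.

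Hadhb, the β subunit with the thiolase, differed in the same direction as the downstream probe of Hadha, by diet and by slide. Its values ran from 2.97 to 3.94 (median 3.56) on the NPD arrays and from 2.93 to 3.89 (median 3.10) on the HPD arrays. The difference was -0.19 (SE 0.19, 95% interval -0.60 to 0.22, q = 0.628), and -0.10 with slide as a block. All 7 values of slide 1 lay above all 7 of slide 2, and the slide difference was -0.62 (q = 0.00103). The probe lies at chr6:26144500-26144559 of rn4, minus strand.

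**Figure D3:**
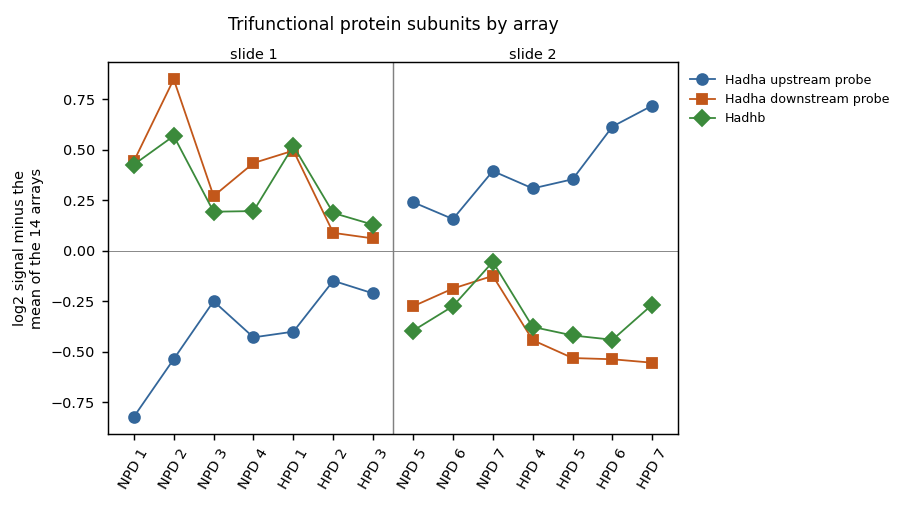
Signal of both Hadha probes and of Hadhb on each array (x axis, grouped by slide and diet), on the log2 scale as the difference from that probe's mean over the 14 arrays (y axis). Lines join the arrays of a slide for reading and stand for no order. The Hadha downstream probe and Hadhb are high on slide 1 and low on slide 2, and the Hadha upstream probe is the other way round.

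Within slide 1, Hadhb and the Hadha downstream probe put the 7 arrays in the same order (Spearman's rho 1, Pearson's r 0.86, exact permutation p = 0.00258 for r). Of the other genes well above background on all arrays, 3.30% were as like that Hadha probe or more on this slide. Pearson's r was 0.70 without the 2 arrays farthest from the median of Hadha. On slide 2 r was 0.66 and rho 0.43 (exact permutation p = 0.0873 for r), and r was -0.19 without the 2 farthest arrays, so there the relation rested on those arrays. The Hadha probes had an r of -0.65 with each other on both slides, with exact permutation p = 0.116 on slide 1 and 0.125 on slide 2.

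Hadha and Hadhb are neighbours that are read away from each other, and the bases between them are therefore shown, from the RefSeq promoter table of GRCr8 at chr6:31907558-31907800, plus strand, 5′ to 3′, with matches to the motifs searched in capitals.
Hadhb to Hadha: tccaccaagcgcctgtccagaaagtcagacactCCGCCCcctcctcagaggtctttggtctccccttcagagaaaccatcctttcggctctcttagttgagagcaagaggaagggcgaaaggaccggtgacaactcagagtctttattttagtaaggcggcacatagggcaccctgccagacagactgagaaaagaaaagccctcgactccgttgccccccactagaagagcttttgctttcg
The stretch is 243 bases long, 53.5% of them G or C, and Hadha starts right after it. The capitals mark a GC box, GGGCGG on the minus strand, 210 bases before the Hadha start. All 9 genes had an entry in the table, and the 250 bases before each start were searched on both strands. The half-site that PPAR and other nuclear receptors bind, AGGTCA, stood in 1 of 9 (Acadvl) and in 14.1% of all 33469 promoters. The PPAR element of half-sites in tandem, searched as AGGNCANAGGNCA, stood in 0 of 9 and in 0.368% of all promoters. With so low a share 0 of 9 is the usual outcome, so nothing is read from it. Elements farther from the start, inside the genes or with other letters were not searched. GGGCGG stood in 6 of 9, Cpt2, Hadha, Hadhb, Pdk4, Angptl4 and Ppara, and in 30.5% of all promoters, and Hadha and Hadhb share 1 of these matches since their windows overlap.

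Ppara itself also differed between the diets by less than the spread between rats. Its values ran from -0.01 to 0.87 (median 0.54) on the NPD arrays and from 0.19 to 0.88 (median 0.60) on the HPD arrays. The difference was 0.04 (SE 0.15, 95% interval -0.28 to 0.36, q = 0.902), which holds changes from -17.8% to 28.5%. The Ppara probe was well above background on all 14 arrays and lies at chr7:123807031-123807090 of rn4, plus strand.

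The targets Pdk4 and Angptl4 were close to the background of the arrays. Pdk4 was well above background on 4 NPD and 2 HPD arrays, with values from -3.48 to -1.49 (median -2.60) in the NPD group and from -3.72 to -2.05 (median -3.08) in the HPD group. The highest Pdk4 values were those of NPD 7 (-1.49), HPD 1 (-2.05) and NPD 1 (-2.07). The difference of -0.26 had a 95% interval from -0.93 to 0.42 (q = 0.692), and it was -0.06 without NPD 7, -0.12 without HPD 2 and -0.15 without NPD 1. The Pdk4 probe spans chr4:30239150-30241038 of rn4, minus strand, and crosses an intron.

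Angptl4 was well above background on 4 NPD and 5 HPD arrays. Its values ran from -3.43 to -0.48 (median -2.06) in the NPD group and from -2.94 to -1.27 (median -1.94) in the HPD group, so the NPD values lay on both sides of the HPD values. The difference of 0.14 had the widest interval of the 10 probes, from -0.79 to 1.06 (q = 0.880). It was 0.60 on slide 1 and -0.67 on slide 2. The difference between the slides (unadjusted p = 0.0434) did not pass the threshold (q = 1.00), and 1.39% of all probes had an unadjusted p under 0.05 for it. With slide as a block the Angptl4 difference was -0.03, and slide 2 was higher than slide 1 by 1.18 (q = 0.0137). The probe lies at chr7:16261624-16261683 of rn4, minus strand.

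All 45 pairs of the 10 probes were also correlated within each slide, over 7 arrays of both diets, which made 90 relations. Of these 8 had an adjusted exact permutation p under the threshold used for calls. In 2 of the 8 one gene was Pdk4, which was well above background on 2 of the 7 arrays of slide 2, so nothing is read from them. In the other 6 both probes were well above background on all 7 arrays of the slide. Among these 6, the share of other well measured genes as like the first probe was lowest for Hadhb with Angptl4 on slide 2 (0.00654%). It was highest for the Hadha downstream probe with Hadhb on slide 1 (3.30%). For Cpt1a with Hadhb on slide 1 (r 0.92, adjusted exact permutation p = 0.0625) it was 2.82%. On slide 2 that pair had an r of 0.62 and a rho of 0.36 (exact permutation p = 0.159 for r). There r was -0.80 without the 2 arrays farthest from the median of Cpt1a. How many pairs of other genes pass this threshold was not tested. Both diets were permuted together, so the part of diet within a slide was not tested.

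The upstream Hadha probe rose with Cpt2 on slide 2, with an r of 0.98 and a rho of 0.96 (exact permutation p = 3.97e-04 for r, adjusted p = 0.00714), and r was 0.91 without the 2 arrays farthest from the median of Cpt2. Of the other 15288 well measured genes, 0.0262% were as like Cpt2 on that slide. On slide 1 the same pair had an r of 0.71 (exact permutation p = 0.0647, adjusted p = 0.266). Hadhb and Angptl4 had an r of 0.95 on slide 2 (adjusted exact permutation p = 0.00893). On slide 1 Angptl4 was well above background on 2 of the 7 arrays, so the pair was not read there.

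**Figure D4:**
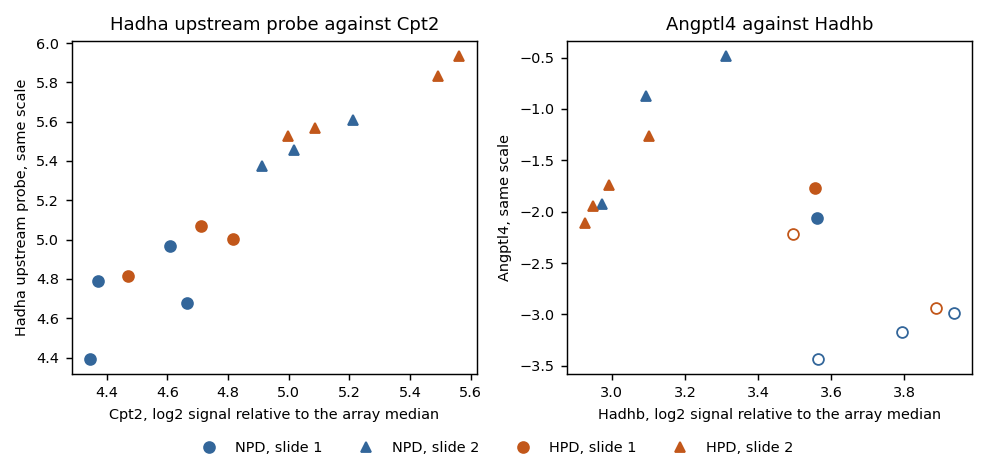
The Hadha upstream probe against Cpt2 (left) and Angptl4 against Hadhb (right) on the 14 arrays, each as log2 signal relative to the array median. Triangles are slide 2 and circles slide 1, blue is NPD and orange HPD, and open symbols are arrays on which a gene of the pair was not well above background. The 7 arrays of slide 2 rise along a line in both panels, and 5 of the 7 arrays of slide 1 are open on the right.

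Cpt2 also went with Acadvl on slide 1, with an r of 0.95 (adjusted exact permutation p = 0.00714), where 0.0654% of the other genes were as like Cpt2, while on slide 2 r was 0.59 and -0.06 without the 2 farthest arrays. Cpt1a went with the downstream probe of Hadha on slide 1 (r 0.94, adjusted exact permutation p = 0.00714), where 1.73% of the other genes were as like Cpt1a, and on slide 2 r was 0.57 and -0.11 without the 2 farthest arrays. Over all 14 arrays, after each slide's mean was taken away, the genes most like Cpt1a among 15288 were Supv3l1 (r 0.94), Ddx28 (r 0.93) and Sacm1l (r 0.92). Those most like Acadvl were Cyhr1 (r 0.91), Nudt12 (r 0.90) and Zranb2 (r 0.89), and those most like the Hadha upstream probe were Degs2 (r 0.93), Scand1 (r 0.92) and Rac2 (r 0.92). Ppara had the weakest likenesses, with Il3ra (r 0.79), Usp9x (r 0.77) and Malt1 (r 0.77).

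The rest of the route was followed through 6 lists of genes. These genes take up and activate fatty acids, move them with carnitine, oxidise them in mitochondria or in peroxisomes, or partner with the PPAR receptors. The last list holds PPAR targets and relatives of such targets. Of 131 genes listed, 125 were on the array and 101 were well above background on each array of at least 1 group. limma called 0 of the 125 (0.056% of all probes were called), and the lowest q-value was 0.417. At an unadjusted p under 0.05 there were 9 genes, 5 lower and 4 higher in the HPD group, which is 7.20% of the 125 against 11.5% of all genes. Over all genes 5.48% were lower and 6.05% higher at this p. The median log2 difference was 0.11 over the 125 genes and 0.11 over all genes. Among genes well above background on each array of at least 1 group, it was 0.105 over the 101 list genes. Over all 16060 such genes it was 0.058.

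In the mitochondrial list, where all 17 genes on the array were well measured, the values went both ways. Acaa2, a thiolase of β-oxidation, was at 7.03 ± 0.46 (SD, n = 7) with the NPD against 6.56 ± 0.27 (SD, n = 7) with the HPD, a difference of -0.47 (unadjusted p = 0.0301, q = 0.418). Eci1, which moves double bonds so that unsaturated chains can be oxidised, differed by -0.32 (unadjusted p = 0.0270, q = 0.417), and for both genes all 7 HPD arrays lay under the NPD mean. Etfdh, which hands the electrons of the dehydrogenases to ubiquinone, was at 4.38 ± 0.11 (SD, n = 7) with the NPD against 4.68 ± 0.17 (SD, n = 7) with the HPD. All 7 HPD arrays lay above the NPD mean of Etfdh, by 0.31 on average (q = 0.417), and the exact permutation test of this gene alone gave p = 0.00175. The list's median was 0.04, with 6 genes lower and 11 higher, while 35.0% of all genes were lower. Of all 16060 well measured genes 6718 were lower and 9342 higher, with a median of 0.058.

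Among the 22 uptake and activation genes the list median was 0.16. Fabp5, a fatty acid binding protein, was higher on all 7 HPD arrays than the NPD mean, with a difference of 0.65 (SE 0.28, unadjusted p = 0.0364, q = 0.425). Dbi, which binds acyl-CoA, differed by 0.51 with its brightest probe (unadjusted p = 0.0242, q = 0.417) and by 0.18 with its other probe. In the carnitine list of 12 genes 0 had an unadjusted p under 0.05, against 11.5% of all genes. The largest differences among well measured genes were those of Acaca (0.32, q = 0.461) and Crot (0.31, q = 0.504). Acaca makes malonyl-CoA, and Crot is the carnitine octanoyltransferase of peroxisomes.

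The 20 peroxisomal genes had a median of 0.17. Acot8, a thioesterase, had the largest difference among the well measured ones (0.35, q = 0.489). Abcd3, a transporter that brings fatty acids into the peroxisome and was picked after its values were seen, was the single gene of the list with an unadjusted limma p under 0.05 (0.27, q = 0.425). Among the 19 PPAR receptors, cofactors and upstream kinases 0 had an unadjusted limma p under 0.05 by their brightest probe. For this list and the peroxisomal one, the share of all genes at this p was 11.5%. A second probe of Ncor1, a corepressor, picked after its values were seen, had a difference of 0.33 with an unadjusted limma p under 0.05, against 0.15 with the brightest. The largest differences were those of Med1, a mediator subunit that PPAR recruits (-0.41, q = 0.448), and of Ppargc1a, a coactivator of mitochondrial genes (-0.40, q = 0.507).

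**Figure D5:**
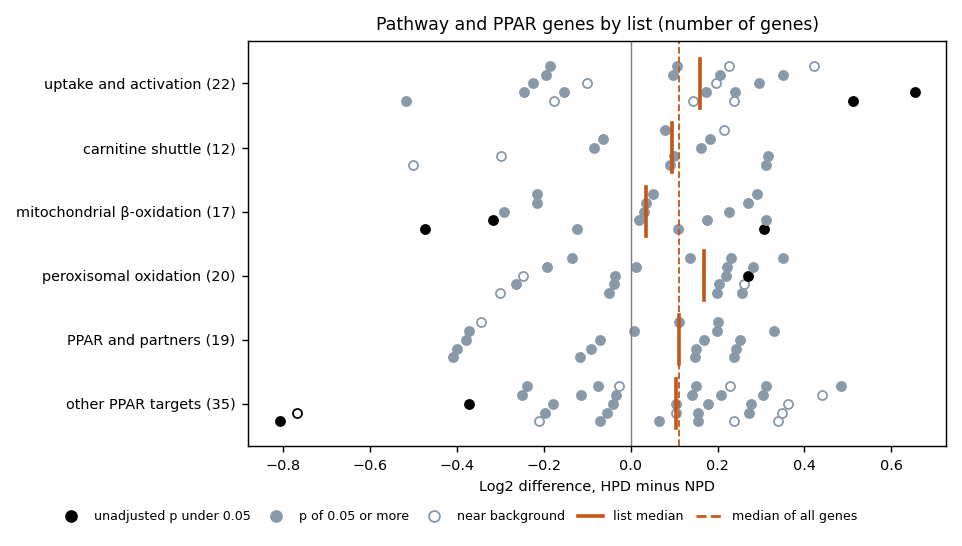
Log2 difference between the diets (x axis, HPD minus NPD) of each gene of the 6 lists by its brightest probe (y axis, lists with their number of genes; height within a list has no meaning). Black points had an unadjusted p under 0.05, open points were not well above background on each array of either group, orange bars are list medians and the dashed line is the median of all genes, 0.11. The 9 black points lie on both sides of 0.

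Of the 35 genes of the PPAR target list on the array, 25 were well measured and the median was 0.11. Pdk3, Pdk1 and Pdk2 are in it as pyruvate dehydrogenase kinases like Pdk4, and whether PPAR acts on them was not tested. None of them passed the threshold. Pdk3 was at 2.11 ± 0.47 (SD, n = 7) with the NPD against 1.30 ± 0.72 (SD, n = 7) with the HPD, with 6 of 7 HPD arrays under the NPD mean and a difference of -0.81 (q = 0.417). Pdk1 was lower on all 7 HPD arrays than the NPD mean, with a difference of -0.37 (q = 0.417), and the exact permutation test of this gene alone gave p = 0.00466. Pdk2, named after its values were seen, had a difference of 0.15 in the other direction (q = 0.556). Vnn1, a pantetheinase, also had an unadjusted limma p under 0.05 (-0.77, q = 0.430) but was well above background on 3 NPD and 0 HPD arrays, and it was named after its values were seen. A second probe of Lipe, a hormone-sensitive lipase likewise picked after its values were seen, had a difference of 0.52 with an unadjusted limma p under 0.05, against -0.03 with the brightest.

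Markers of fat cells, which express many PPAR targets, were read beside these results. Of 7 such markers 3 were well measured, Adipoq, Cidec and Cfd, while Lep, Plin1, Retn and Fabp4 were near background. Their summed signal was between 2.95 and 4.32 times the array median on the NPD arrays and between 2.49 and 3.71 times on the HPD arrays (exact permutation p = 0.0198, adjusted over 9 marker lists p = 0.0891). The lists above hold 3 of these markers, Fabp4, Plin1 and Cidec. The summed signal of 4 red blood cell genes was between 36.5 and 61.3 times the array median on the NPD arrays. It was between 46.2 and 152 times on the HPD arrays (exact permutation p = 0.00991, adjusted p = 0.0891). That of 5 endothelial markers was between 10.1 and 12.6 times and between 10.9 and 14.4 times (adjusted exact permutation p = 0.0962). The endothelial markers did not share a direction: 2 were lower and 3 higher with the HPD, and the 4 well measured ones split 2 and 2. The summed signals of the lists for absorptive, goblet, enteroendocrine, stem and cycling, immune, and stromal and muscle cells had adjusted exact permutation p-values from 0.372 to 0.938. The part of these cells in the member values was not tested.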

How the data were processed

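Colonocyte RNA of 7 NPD and 7 HPD rats was read on 1-colour Agilent arrays. Per the labels, the scanner output was made with Agilent Feature Extraction 10.7.3.1, and in the deposited files each spot has its raw and its background-subtracted intensity on a linear scale. A second deposited file holds the authors' normalized log2 values, 1 row per gene name, and served as an alternative. The samples that the study removed as outliers were not analysed here, and 0 columns belonged to other samples. The diet of each array came from its labels and its slide from the scanner file. Probe coordinates are those of the array design (rn4), and promoters came from the RefSeq table of GRCr8.

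After removal of control spots and of outlier spots, background-subtracted intensities were log2-transformed, and repeated spots of a probe were averaged. Each array was then centred on its median over 30367 probes, with no pseudocount and no filter on signal. limma 3.58.1 in R 4.3.3 (with version 1.17.8 of data.table) was fitted with diet as its single term, p-values were adjusted by Benjamini-Hochberg over all probes, and a q-value below 0.1 was a call. The methods of the study name log2, centring, averaging and limma, but neither the signal column nor the centring statistic. The brightest probe stood for a gene. Exact two-sided permutation tests of the difference of means used 3432 splits of the arrays, and 1225 regroupings within slides. The fit was tested on simulated data, drawn as independent normal values for each probe with no slide effect. That test does not show how the fit deals with slide. The number of arrays limits the precision.

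The members and lists were chosen with earlier results of these data known. Of each list the genes named were those with an unadjusted p under 0.05 (up to 6, by size) that were well above background on each array of at least 1 group, or the 2 largest differences where fewer than 2 qualified. The result of 1 gene that this rule names is not reported here. Genes carry the names that the array design gives them, and 2 listed genes were found through their accession. Alternatives were the mean pixel signal, the median pixel signal, another centring (75th percentile, mean), quantile normalization, cyclic loess, normexp (offset 50), a filter for probes well above background, slide or replicate number as a block, cyclic loess with the slide block, an eBayes trend, the deposited values without and with the slide block, each slide alone, a q-value below 0.05, the mean of a gene's probes, and leaving out each array.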

Additional observations from a re-analysis of the deposited data

Results flagged for a closer look

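In 1 of 20 groups of member values (10 probes in 2 diets), an array stood apart from the other 6. The Acadvl value of NPD 5, 6.25 against 5.86 for the next highest NPD array, left a gap of 0.772 of the group's range, above Dixon's critical value for 7 values. Chance flags about 1 in 20 groups.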

How the results depend on the processing

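The count of members called stayed at 0 under all alternatives except normexp background correction, which called 1, Cpt1a. The count of pathway and PPAR list genes stayed at 0 except for 15 after normexp and 10 with the slide block in the deposited table. Over all genes these settings called 19.0% and 10.5%, against 16 genes (0.0609%) in the analysis as reported. Cpt1a, Cpt2 and Hadhb kept their direction in all 33 fits, and both Hadha probes in the 30 fits that keep them apart. Acadm, at 0.03, turned to -0.064 with the mean pixel signal, -0.062 with the median pixel signal or quantile normalization, -0.039 when centred on the mean, -0.038 by cyclic loess, -0.11 after normexp, -0.10 in the deposited table, -0.087 there with the slide block, and -0.049 on slide 1 alone. Pdk4 turned to 0.080 with the mean pixel signal, 0.073 with the median pixel signal, 0.079 after normexp, 0.032 in the deposited table and 0.027 there with the slide block. Acadvl turned to -0.0051 after normexp, -0.0057 in the deposited table and -0.0028 there with the slide block. Ppara turned to -0.034 when centred on the mean or in the deposited table, and to -0.0076 after normexp. Angptl4 turned to -0.033 with slide as a block, -0.11 when cyclic loess was added, and -0.67 on slide 2 alone. Without 1 array, Angptl4 lay between -0.081 and 0.41 and was below 0 without NPD 1, NPD 2 or NPD 4. Ppara lay between -0.047 and 0.10 and was below 0 without NPD 6 or HPD 6, and Acadm lay between -0.016 and 0.067 and was below 0 without HPD 7. Pdk4 lay between -0.40 and -0.06, nearest to 0 without NPD 7, and Hadhb between -0.29 and -0.11. The causes were not tested. Centring on the mean moved the median of all genes from 0.11 to 0.03, and cyclic loess moved it to 0.0006. Leaving out HPD 1 raised the genes called over all from 16 to 147, with 0 members among them. Replicate numbers were not taken as pairs, since the labels name no shared source. Same-numbered arrays had correlations of their deviations from 0.14 to 0.39, except -0.09 for number 4, whose arrays lay on different slides. With the replicate block Cpt1a was at -0.50 (SE 0.14, q = 0.178, against SE 0.23 without it), 3 members had an unadjusted limma p under 0.05 against 1 without it, and 0 members, 0 list genes and 7 genes over all were called. The signals of Pdk4 and Angptl4, near background, limit what their intervals can show.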
